A study of Saccharomyces cerevisiae with 16 samples.

Results

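The genes described are 44 genes of amino acid synthesis in budding yeast. They cover the pathways to histidine, the branched-chain amino acids, the aromatic amino acids, serine, threonine and proline, the assimilation of ammonium into glutamate, glutamine and asparagine, and the transcriptional activator gene GCN4. They were chosen by name, as members of these pathways. The arrays measured 43 of the 44, among 4073 genes that could be named in all. LEU9, which encodes a second isopropylmalate synthase, was not measured. By pathway, 6 genes belonged to histidine synthesis, 9 to branched-chain, 10 to aromatic, 4 to serine, 5 to threonine and 3 to proline synthesis, and 5 to the amides and nitrogen assimilation.

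The study compared yeast carrying esa1-L254P with wild type (WT), both in the W303 background. ESA1 encodes the catalytic subunit of the NuA4 histone acetyltransferase, and the labels give the mutant allele with the selection marker NatRMX4. RNA was compared on 16 two-colour arrays, with 8 comparisons of 2 arrays each and the dyes exchanged between the arrays of a pair. Of these comparisons, 4 set cells exposed to methyl methanesulfonate (MMS), a DNA-alkylating agent, against untreated cells of the same strain and phase, and 4 set esa1-L254P against WT in the same phase and treatment.

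S-phase cells were held with the mating pheromone alpha factor for 2 h, washed in the rich medium YPAD and released for 1 h with 0.05% MMS or without it. G1 cells were held with alpha factor for 1 h and then exposed to 0.05% MMS, or left untreated, for 1 h. All cultures had therefore been arrested with pheromone, and all RNA was polyA RNA primed with oligo-dT. The labels do not say that the 2 arrays of a comparison came from separate cultures, so every p-value measures only the spread between arrays, which may be technical. Their number, 2 per comparison, limits the precision of each value.

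Yeast makes every amino acid from intermediates of central carbon metabolism, with nitrogen that enters as ammonium through glutamate and glutamine. When any of several amino acids runs short, uncharged tRNA activates the kinase Gcn2, which phosphorylates the translation factor eIF2. General translation falls, while translation of the GCN4 messenger rises through its upstream reading frames, and the Gcn4 protein then activates genes in most of these pathways at once, a response known as general amino acid control. The GCN4 messenger level and the Gcn4 protein level can therefore move separately, and arrays see only the messenger. Acetylation of histone H4 by NuA4 is known from yeast to mark the promoters of many active genes.

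Values are log2 ratios of MMS over untreated or of esa1-L254P over WT, so a ratio of 1 is a 2-fold higher level. The sign rests on reading the ratios as Cy5 over Cy3. With that reading MAG1, a DNA glycosylase gene induced by alkylation, rose in all 4 MMS comparisons, by 1.08 in esa1-L254P and 1.12 in WT in S phase and by 0.86 in esa1-L254P and 1.05 in WT in G1. RNR3, the other gene taken as a check, rose only in S phase, by 0.99 in esa1-L254P and 1.24 in WT. In G1 its ratio was 0.004 in esa1-L254P and -0.25 in WT, where it was called lower. Before turning, the arrays of a pair correlated below 0 across genes in 6 of 8 comparisons, which is what a dye swap gives when the samples differ. Both comparisons of the strains under MMS were exceptions, with correlations of 0.21 in G1 and 0.61 in S phase, so across genes the ratios there did not turn over with the dyes. HIS3, a histidine gene outside the list, did: after turning, its ratios of esa1-L254P over WT were -2.34 and -2.58 in G1 with MMS and -1.43 and -0.81 in S phase with MMS, on the side of its untreated ratios of -2.32 and -3.12 in S phase and -1.58 and -2.24 in G1. In G1 with MMS the array with esa1-L254P in Cy5 also stood apart in the listed genes: the median over the 43 was 1.34, against -0.08 on its dye swap. Over all genes the median size of a ratio was 0.27 on this array and 0.24 on its swap. The S-phase pair with MMS had medians of 0.63 and -0.43 over the 43 genes. Results that rest on the G1 array are given with and without it.

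Genes were called in limma at an adjusted p under 0.05 over all 4073 genes within a comparison. A second limma fit added the replicate number as a block, which here equals the dye orientation. It leaves the ratios as they are and lowers the median standard error to 0.0929, against 0.149 without it. Counts over the 43 genes are given both ways, because the block moved most of them by more than 1.5 times.

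The response to MMS is described here by phase and then by pathway. In S phase, 6 of the 43 genes rose and 2 fell in esa1-L254P, and 9 rose and 4 fell in WT. In G1, 3 rose and 2 fell in esa1-L254P, and 2 rose and 2 fell in WT. The genes that rose encode steps of serine, histidine, aromatic and threonine synthesis, and those that fell encode the glutamate and glutamine synthases of nitrogen assimilation, HIS6, PRO1 and ILV1.

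These counts have to be read against all genes, since MMS moved many. In esa1-L254P S-phase cells 14% of the listed genes rose, against 16.3% of all genes, and 4.65% fell, against 16.8%. In WT S-phase cells 20.9% rose, against 19.1% of all genes, and 9.3% fell, against 19.2%. The shares that rose lie near the background and those that fell lie below it. The dye term, by which the Cy5 array lies above the mean of its pair on average, was larger for the listed genes. Its median size was 0.29, against 0.10 over all genes. Without the block this term counts as spread between arrays, here and in the later shares given without it. Its effect on the shares was not tested.

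In G1 the shares were below the background in both directions. In esa1-L254P 6.98% rose, against 13.3% of all genes, and 4.65% fell, against 13.9%. In WT 4.65% rose, against 18.1%, and 4.65% fell, against 17.9%. The largest ratios among the listed genes were 1.51 for LEU4 in esa1-L254P and 1.90 for HOM3 in WT in S phase, and 1.22 for HOM3 in esa1-L254P and 1.19 for ASN1 in WT in G1.

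With the replicate block the S-phase shares of genes that rose were above the background. In esa1-L254P 18 genes rose and 4 fell, so 41.9% rose against 25.3% of all genes, and 30.4% of all genes fell. In WT 27 rose and 4 fell, so 62.8% rose against 28% of all genes, and 30.3% of all genes fell. In G1 the block gave 11 higher and 3 lower in esa1-L254P, with 24.2% of all genes higher and 27.1% lower. It gave 6 higher and 5 lower in WT, with 27.2% of all genes higher and 29.1% lower. The difference between these shares and the background was not tested. Leaving out either array of a comparison left 3 or 4 called genes in S phase in each strain, 1 to 3 in G1 in esa1-L254P and 1 or 2 in G1 in WT.

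**Figure D1:**
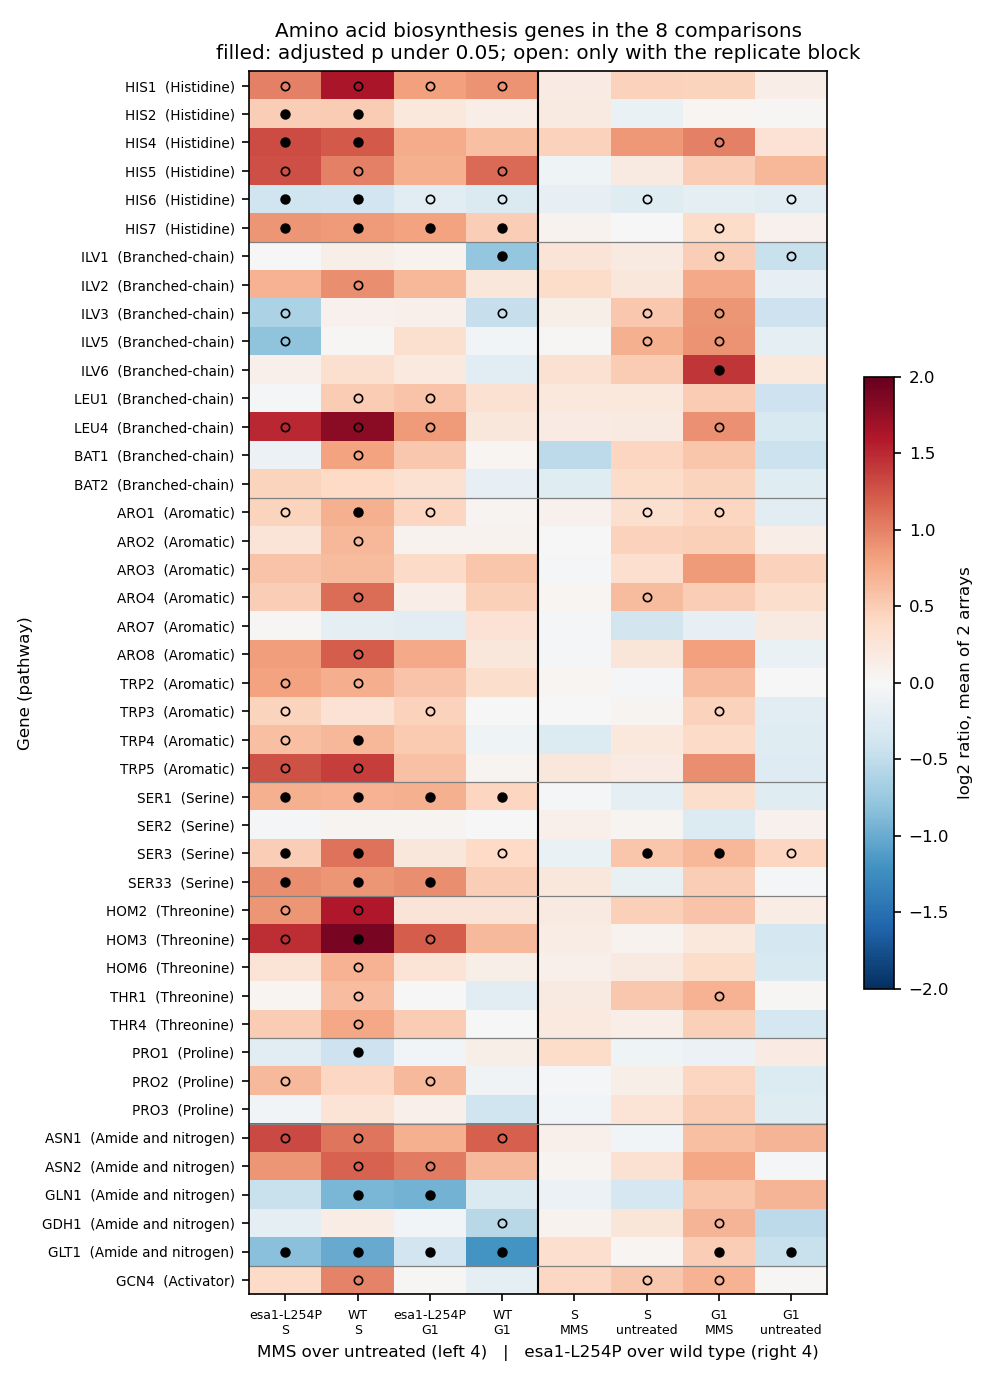
Mean log2 ratio over 2 arrays (colour, from -2 to 2) for the 43 measured genes (rows, grouped by pathway) in the 8 comparisons (columns, MMS over untreated on the left and esa1-L254P over WT on the right). Filled dots mark an adjusted p under 0.05 in limma and open dots mark genes called only with the replicate block. The S-phase MMS columns hold most of the dots, GLT1 is lower in all 4 MMS columns, and the column of esa1-L254P over WT in S phase with MMS has none.

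The genes were also described without a threshold. The median ratio over the 43 genes was 0.49 in esa1-L254P and 0.69 in WT in S phase, and 0.38 in esa1-L254P and 0.11 in WT in G1, while the median over all genes lay between -0.01 and 0.01 in each. Above 0 were 31 of 43 genes in esa1-L254P and 38 in WT in S phase, and 36 in esa1-L254P and 27 in WT in G1. The arrays of a pair differed, with the Cy5 array given first. In S phase their medians were 0.73 and 0.11 in esa1-L254P and 0.83 and 0.49 in WT. In G1 they were 0.81 and -0.05 in esa1-L254P, with 36 and 19 genes above 0. In WT G1 they were 0.30 and -0.01, with 28 and 20 genes above 0. On single arrays, 8 genes lay above 0 on all 8 MMS arrays, namely HIS4, HIS7, ILV2, TRP2, SER1, SER3, SER33 and ASN2. That is 18.6% of the listed genes, against 12.8% of all genes. HIS6, GLN1 and GLT1 lay above 0 on none of the 8, which is 6.98% of the listed genes against 12.0% of all genes.

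In nitrogen assimilation GLT1, which encodes glutamate synthase, was the gene most clearly lowered by MMS. In esa1-L254P its ratios on the 2 arrays were -0.87 and -0.81 in S phase and -0.34 and -0.42 in G1. In WT they were -0.82 and -1.19 in S phase and -1.03 and -1.36 in G1. All 8 arrays lay below 0, and both WT arrays in G1 lay below both esa1-L254P arrays in G1. GLT1 fell in all 4 comparisons, with means of -0.84 in esa1-L254P and -1.01 in WT in S phase (adjusted p = 0.000309 and 8.6e-05) and -0.38 in esa1-L254P and -1.20 in WT in G1 (adjusted p = 0.0251 and 5.37e-05), each with a standard error of 0.11. The calls in S phase and in WT G1 were kept with either array left out, while the call in esa1-L254P G1 was lost without either one.

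GLN1, for glutamine synthetase, which joins ammonium to glutamate, had ratios of -0.25 and -0.63 in esa1-L254P and -0.85 and -0.97 in WT in S phase. In G1 they were -0.49 and -1.39 in esa1-L254P and -0.47 and -0.12 in WT. Again no array lay above 0. GLN1 fell in WT in S phase (-0.91 ± 0.29, SE, adjusted p = 0.0318) and in esa1-L254P in G1 (-0.94 ± 0.29, adjusted p = 0.0371), and its ratios of -0.44 in esa1-L254P in S phase and -0.29 in WT in G1 did not pass. Without replicate 2 the esa1-L254P call was lost, and without either array the WT call was lost. GDH1, for the glutamate dehydrogenase that uses NADPH to fix ammonium, was called in no MMS comparison, and only with the block in WT G1, at -0.56 (adjusted p = 0.0332).

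ASN1 and ASN2 encode the asparagine synthetases. ASN1 had 1.97 and 0.67 in esa1-L254P and 1.47 and 0.67 in WT in S phase, and 1.43 and -0.02 in esa1-L254P and 1.52 and 0.86 in WT in G1. ASN2 had 1.52 and 0.25 in esa1-L254P and 1.53 and 0.85 in WT in S phase, and 1.73 and 0.35 in esa1-L254P and 0.75 and 0.54 in WT in G1. In each comparison the array with the MMS sample in Cy5 gave the higher value of both genes. Neither was called without the block. With it ASN1 was called up in both S-phase comparisons and in WT G1, and ASN2 in WT S phase and esa1-L254P G1.

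Serine synthesis starts from the glycolytic intermediate phosphoglycerate and runs through SER3 or SER33, then SER1, then SER2. SER1, for phosphoserine aminotransferase, had 0.73 and 0.69 in esa1-L254P and 0.57 and 0.81 in WT in S phase, and 0.79 and 0.64 in esa1-L254P and 0.43 and 0.45 in WT in G1. All 8 arrays lay above 0, between 0.43 and 0.81. It rose by 0.71 in esa1-L254P and 0.69 in WT in S phase (adjusted p = 0.00515 and 0.00493), and by 0.72 in esa1-L254P and 0.44 in WT in G1 (adjusted p = 0.00624 and 0.0435), each with a standard error of 0.15.

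SER3 and SER33 encode paralogous phosphoglycerate dehydrogenases, which catalyse the same first step. SER33 had 1.12 and 0.74 in esa1-L254P and 0.85 and 0.91 in WT in S phase, and 1.00 and 0.86 in esa1-L254P and 0.35 and 0.63 in WT in G1. SER3 had 0.29 and 0.71 in esa1-L254P and 0.98 and 1.18 in WT in S phase, and 0.16 and 0.29 in esa1-L254P and 0.30 and 0.48 in WT in G1. Every array lay above 0 for both genes, and for SER3 both WT S-phase arrays lay above both esa1-L254P S-phase arrays.

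SER33 rose in both strains in S phase, by 0.93 in esa1-L254P and 0.88 in WT (adjusted p = 0.012 and 0.0135), and in esa1-L254P in G1 by 0.93 (adjusted p = 0.0146), while 0.49 in WT in G1 did not pass (adjusted p = 0.128), each ± 0.23 (SE). SER3 rose in S phase by 0.50 in esa1-L254P and 1.08 in WT (adjusted p = 0.0319 and 0.00048, SE 0.15). In G1 its 0.22 in esa1-L254P (adjusted p = 0.322) and 0.39 in WT (adjusted p = 0.0738, and 0.00681 with the block) did not pass without the block. The SER3 call in WT S phase was kept with either array left out, and that in esa1-L254P S phase was lost without replicate 2. The SER1 call in WT S phase was lost without replicate 2, and the other SER1 calls and all SER33 calls were lost without either array. SER2, for the phosphatase of the last step, had ratios between -0.04 and 0.06 and was called nowhere.

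Histidine synthesis begins with HIS1 and proceeds through the enzymes of 5 further listed genes. HIS7, for imidazole glycerol phosphate synthase, had 0.79 and 0.97 in esa1-L254P and 0.90 and 0.80 in WT in S phase, and 0.77 and 0.83 in esa1-L254P and 0.58 and 0.41 in WT in G1. All 8 arrays lay above 0, with the WT G1 pair lowest. HIS7 rose in all 4 comparisons, by 0.88 in esa1-L254P and 0.85 in WT in S phase (adjusted p = 0.000978 and 0.000904) and by 0.80 in esa1-L254P and 0.49 in WT in G1 (adjusted p = 0.00236 and 0.0173), each with a standard error of 0.13. Only the WT G1 call was lost with either array left out.

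HIS6, for an isomerase earlier in the same pathway, went the other way. It had -0.22 and -0.57 in esa1-L254P and -0.37 and -0.41 in WT in S phase, and -0.17 and -0.26 in esa1-L254P and -0.26 and -0.31 in WT in G1. No array lay above 0. HIS6 fell in S phase, with means of -0.39 in esa1-L254P and -0.39 in WT (adjusted p = 0.0209 and 0.0192, SE 0.11), and in G1 it passed only with the block (adjusted p = 0.0344 in esa1-L254P and 0.00765 in WT). The esa1-L254P call was lost without replicate 2, and the WT call without either array.

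HIS2, for histidinol phosphatase, rose in S phase by 0.49 in esa1-L254P and 0.51 in WT (adjusted p = 0.00722 and 0.00533, SE 0.11), with arrays of 0.60 and 0.38 in esa1-L254P and 0.50 and 0.51 in WT. The esa1-L254P call was lost without replicate 1, and the WT call without either array. HIS4, for an enzyme with several activities in this pathway and a classic Gcn4 target, rose in S phase by 1.30 in esa1-L254P and 1.22 in WT (adjusted p = 0.043 and 0.0483, SE 0.43). Its arrays gave 1.51 and 1.09 in esa1-L254P and 1.31 and 1.13 in WT. Both HIS4 calls were lost when either array was left out.

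HIS1, for the enzyme that commits phosphoribosyl pyrophosphate to histidine, was called only with the block, in all 4 comparisons. Its S-phase arrays gave 1.64 and 0.38 in esa1-L254P and 2.26 and 1.02 in WT, and its G1 arrays gave 1.65 and -0.01 in esa1-L254P and 1.40 and 0.39 in WT. The Cy5 array was the higher of each pair, as for ASN1. HIS5, for histidinol-phosphate aminotransferase, was called with the block in both S-phase comparisons and in WT G1, at 1.29 in esa1-L254P and 1.01 in WT in S phase and 1.13 in WT in G1.

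Threonine synthesis branches from aspartate through HOM3, HOM2 and HOM6, then THR1 and THR4. HOM3, for aspartate kinase at the entry of the pathway, had 2.04 and 0.91 in esa1-L254P and 2.42 and 1.39 in WT in S phase. Both arrays of each strain lay above 0. HOM3 rose in WT in S phase by 1.90 ± 0.61 (SE, adjusted p = 0.0338), the largest ratio of the 43 genes in any MMS comparison, and its 1.48 in esa1-L254P passed only with the block (adjusted p = 0.0944, and 0.00348 with it). The WT call was lost without either array. In WT S phase the 5 threonine genes had ratios from 0.61 (THR1, homoserine kinase) to 1.90, all 5 passed with the block, and the median was 0.77. In esa1-L254P S phase the range was 0.03 to 1.48 with a median of 0.51, and 2 passed with the block.

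The aromatic genes take the shikimate route to chorismate (ARO3, ARO4, ARO1, ARO2) and then to tryptophan (TRP2 to TRP5) or to phenylalanine and tyrosine (ARO7, ARO8). In WT S phase ARO1, for the enzyme that catalyses the central steps of the shikimate route, rose by 0.71 ± 0.18 (SE, adjusted p = 0.0109), with arrays of 0.58 and 0.84. TRP4, for anthranilate phosphoribosyltransferase, rose there by 0.67 ± 0.24 (adjusted p = 0.0479), with arrays of 0.61 and 0.72. Both calls were lost without either array. The median of the 10 aromatic genes was 0.69 in WT S phase, where 7 passed with the block, and 0.53 in esa1-L254P S phase, where 5 did. In G1 the medians were 0.45 in esa1-L254P and 0.15 in WT.

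ARO3 and ARO4 encode the paralogous synthases of the first aromatic step, inhibited by phenylalanine and by tyrosine. ARO3 had 1.02 and 0.11 in esa1-L254P and 0.58 and 0.69 in WT in S phase, and 0.81 and -0.05 in esa1-L254P and 0.49 and 0.63 in WT in G1. ARO4 had 1.09 and -0.11 in esa1-L254P and 1.84 and 0.38 in WT in S phase, and 0.88 and -0.60 in esa1-L254P and 1.06 and -0.11 in WT in G1. The ARO4 arrays fell on opposite sides of 0 in 3 of the 4 comparisons. Neither gene was called without the block, and with it only ARO4 in WT S phase. ARO7, for the chorismate mutase that leads to phenylalanine and tyrosine, had ratios from -0.23 to 0.29 and was called in no MMS comparison with or without the block.

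Branched-chain synthesis uses ILV1 for isoleucine only, shared mitochondrial steps (ILV2 with its regulatory subunit ILV6, ILV5 and ILV3), LEU4 and LEU1 for leucine, and the aminotransferases BAT1 and BAT2. ILV1, for threonine deaminase, had -0.81 and -0.73 in WT in G1, against 0.29 and -0.16 in esa1-L254P in G1, so the WT pair lay below the mutant pair. It fell in WT in G1 (-0.77 ± 0.15, SE, adjusted p = 0.00296), and the call was lost without replicate 1. Its ratio was 0.07 in esa1-L254P in G1, and -0.01 in esa1-L254P and 0.12 in WT in S phase, and none of these passed. No other branched-chain gene was called in an MMS comparison without the block.

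LEU4, for the isopropylmalate synthase that commits carbon to leucine, had 2.15 and 0.88 in esa1-L254P and 2.55 and 1.06 in WT in S phase, and 1.63 and 0.08 in esa1-L254P and 0.61 and -0.15 in WT in G1. Its WT S-phase mean of 1.80 just missed the threshold (adjusted p = 0.053) and passed with the block (adjusted p = 0.000493). BAT1, the mitochondrial aminotransferase, had 0.67 and -0.89 in esa1-L254P and 1.36 and 0.24 in WT in S phase, and 1.23 and -0.16 in esa1-L254P and 0.46 and -0.38 in WT in G1. BAT2, its cytosolic counterpart, had 0.78 and 0.12 in esa1-L254P and 0.31 and 0.49 in WT in S phase, and 0.15 and 0.47 in esa1-L254P and -0.10 and -0.24 in WT in G1. BAT1 passed only with the block and only in WT S phase, and BAT2 passed nowhere.

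The branched-chain genes differed among themselves in esa1-L254P S phase. Their ratios ran from -0.80 (ILV5, the reductoisomerase) to 1.51 (LEU4), with a median of -0.01 and 4 of 9 above 0. With the block LEU4 was higher there, and ILV5 and ILV3, the dehydratase that follows it, were lower. In WT S phase all 9 lay above 0, with a median of 0.40. In proline synthesis, PRO1, for the glutamate kinase of the first step, fell in WT S phase (-0.41 ± 0.11, SE, adjusted p = 0.0179), with arrays of -0.45 and -0.37, and the call was lost without either array. PRO2, for the reductase that follows, lay at 0.65 in esa1-L254P and 0.42 in WT in S phase and was called only in esa1-L254P and only with the block. PRO3, for the last step, was called in no MMS comparison.

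**Figure D2:**
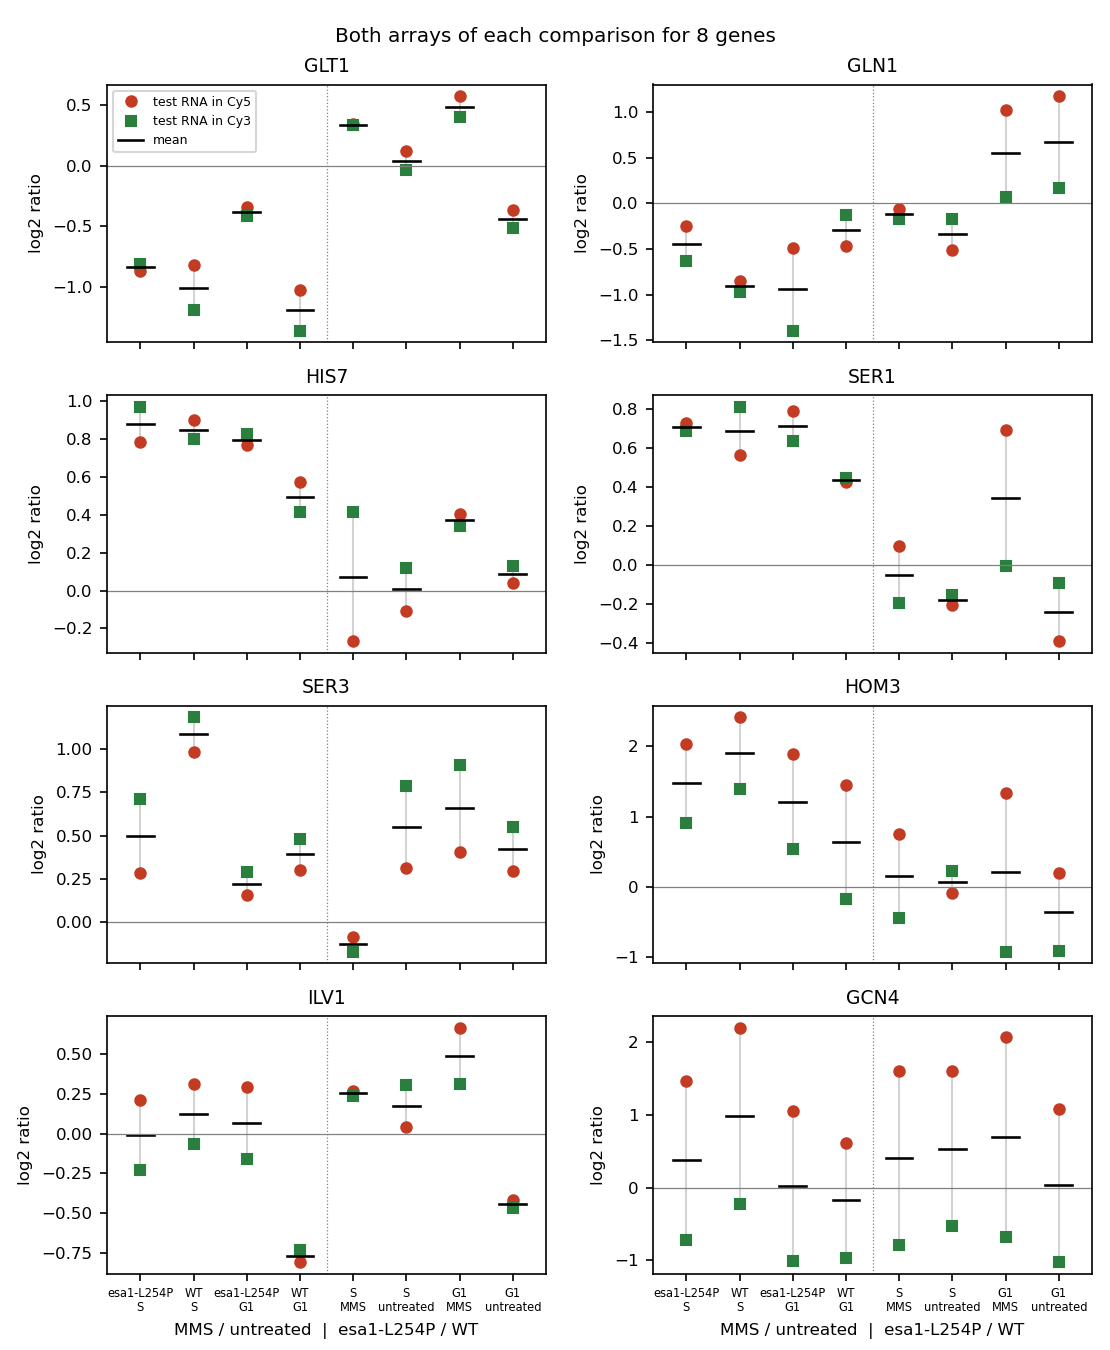
Log2 ratio on each array (y) in the 8 comparisons (x) for GLT1, GLN1, HIS7, SER1, SER3, HOM3, ILV1 and GCN4. Red circles are arrays with the test RNA (MMS or esa1-L254P) in Cy5, green squares those with it in Cy3, and black bars the mean of both. In the 4 MMS comparisons HIS7 and SER1 pairs sit above 0 and GLT1 pairs below 0, and GCN4 pairs straddle 0 in every comparison.

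Across the 43 genes, HIS7 and SER1 rose and GLT1 fell in all 4 MMS comparisons, and 29 genes were called in none. With the block HIS1 joined the genes called up in all 4 and HIS6 joined those called down in all 4. Only ILV6, BAT2, ARO3, ARO7, SER2 and PRO3 were then called in no MMS comparison. The shares of all genes called in all 4 comparisons or in none are not given here, so these counts cannot be read against a background. Of the 43 genes, 29 had spots that lay more than 0.5 apart on at least 1 array, as had 1630 of the 4073 genes.

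Whether the response to MMS differed between phases was tested for each strain as the S-phase response minus the G1 response. In WT 2 genes were higher in S phase and 1 was lower, with 15.8% of all genes higher and 16.4% lower. ILV1 differed by 0.90 (adjusted p = 0.00971), SER3 by 0.69 (adjusted p = 0.0357) and PRO1 by -0.52 (adjusted p = 0.0333). ILV1 had 0.12 in S phase and -0.77 in G1, SER3 had 1.08 and 0.39, and PRO1 had -0.41 and 0.11. Over the 43 genes 37 differences lay above 0 and the median was 0.57, against 0.05 over all genes. With the block 8 were higher and 1 lower, with 26.5% and 25.6% of all genes, and without either array none was called.

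In esa1-L254P limma called none of the 43 genes between the phases, GLT1 alone had an unadjusted p under 0.05, and the median difference was 0.05. Among all genes 4.91% were higher and 4.62% lower in S phase. With the block 2 were lower in S phase, ILV5 at -1.12 (adjusted p = 0.0417) and GLT1 at -0.46 (adjusted p = 0.012), with 12.4% of all genes higher and 14.6% lower. Whether the phase difference itself differed between the strains was not tested.

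The strain comparisons set esa1-L254P against WT under one condition at a time. In untreated S-phase cells 1 of 43 genes rose and none fell, with 9.23% of all genes higher and 11.5% lower. In untreated G1 cells none rose and 1 fell, with 12.1% of all genes higher and 9.31% lower. With MMS none was called in S phase, where 0.0246% of all genes were higher and 0.0982% lower, and 3 rose in G1, where 4.54% of all genes were higher and 5.25% lower. In S phase with MMS, 2 genes, PRO1 and GLT1, had an unadjusted p under 0.05, and none passed with the block, where 0.884% of all genes were higher and 1.15% lower. The 2 arrays there correlated at -0.61 across genes after turning, so the lack of calls does not show that the strains were alike.

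In untreated cells SER3 had 0.32 and 0.79 in S phase and 0.30 and 0.55 in G1, so both arrays lay above 0 in both phases. It was higher in esa1-L254P in S phase (0.55 ± 0.15, SE, adjusted p = 0.0306), and in G1 its 0.42 passed only with the block (adjusted p = 0.0797, and 0.00637 with it). GLT1 had 0.12 and -0.04 in untreated S phase, where its arrays lay on opposite sides of 0, and -0.37 and -0.51 in untreated G1. It was lower in esa1-L254P in untreated G1 (-0.44 ± 0.11, SE, adjusted p = 0.0161). Both calls were lost without either array. The median of the 43 genes was 0.20 in untreated S phase, with 34 above 0, and -0.14 in untreated G1, with 19 above 0. On single arrays it was 0.26 and 0.09 in untreated S phase. In untreated G1 it was 0.19 and -0.27, with 28 and 14 genes above 0. With the block 6 rose and 1 fell in S phase (18.6% and 20.9% of all genes), and 1 rose and 3 fell in G1 (23.1% and 20.6%).

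With MMS in G1 the median ratio of esa1-L254P over WT was 0.50 and 39 of 43 genes lay above 0. ILV6, the regulatory subunit of acetolactate synthase, had 2.33 and 0.54, SER3 had 0.41 and 0.91, and GLT1 had 0.57 and 0.40. All 3 pairs lay above 0. ILV6 was higher in esa1-L254P by 1.43 ± 0.40 (SE, adjusted p = 0.0498), SER3 by 0.66 ± 0.15 (adjusted p = 0.0291) and GLT1 by 0.49 ± 0.11 (adjusted p = 0.0214). With the block 14 were higher and none lower, which is 32.6% of the genes against 14.5% of all genes, with 15.1% of all genes lower.

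This comparison rests on the array that stood apart. On it, 39 of the 43 genes lay above 0, with a median of 1.34, and on the dye swap 17 did, with a median of -0.08. The 9 branched-chain genes had medians of 1.71 on the first and -0.15 on the second, and the 5 threonine genes 1.41 and -0.68. Without that array limma called none of the 43 genes, against 0.982% of all genes upward and 0.614% downward. With the block 2, GLT1 and SER3, were then called upward, with 5.89% of all genes upward and 5.33% downward. HIS3, for the dehydratase of histidine synthesis, was lower in esa1-L254P over WT in untreated S phase (-2.72), in G1 with MMS (-2.46) and in untreated G1 (-1.91), and its -1.12 in S phase with MMS passed only with the block. Its part in these results was not tested.

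The strain difference of the MMS response asks whether MMS moved a gene differently in esa1-L254P than in WT. It was estimated in 2 ways that were then averaged, from the MMS responses of the 2 strains and from the strain ratios with and without MMS. In G1, 5 genes differed upward and none downward, with 21.4% of all genes upward and 20.2% downward, so the upward share of 11.6% lies below the background without the block. GLT1 differed by 0.87 (adjusted p = 0.000177) and ILV1 by 0.88 (adjusted p = 0.00113). TRP3, for a bifunctional enzyme of tryptophan synthesis, differed by 0.58 (adjusted p = 0.0242), ARO1 by 0.51 (adjusted p = 0.0438) and SER1 by 0.43 (adjusted p = 0.0405). With the block 17 differed upward and 1 downward, so the upward share of 39.5% lies above the 32.9% of all genes, while 30.3% of all genes differed downward.

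The 2 ways gave ILV1 0.84 from the MMS responses and 0.93 from the strain ratios, and GLT1 0.82 and 0.93. Each passed on its own for both genes, with adjusted p = 0.0179 and 0.0104 for ILV1 and 0.00436 and 0.00212 for GLT1. Over the 43 genes the median was 0.30 from the MMS responses, with 33 above 0, and 0.66 from the strain ratios, with 37 above 0. Each way called 2 genes upward without the block, with 11.6% of all genes upward in each. With the block the MMS responses called 3 and the strain ratios, which hold the array that stood apart, called 13, with 24.4% and 24.7% of all genes upward. The 9 branched-chain genes lay above 0 both ways, with medians of 0.48 and 0.99.

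Without the array that stood apart, 3 genes differed upward in G1 and 1 downward, and the median of the 43 genes fell to 0.10, against 0.47 with it. ILV1 (0.79, adjusted p = 0.00492), GLT1 (0.83, adjusted p = 0.000966) and ARO1 (0.62, adjusted p = 0.0302) passed upward, and ARO7 passed downward (-0.61, adjusted p = 0.00818). TRP3 and SER1 were no longer called. Among all genes 20.4% were then upward and 18.5% downward. With the block 6 were upward, namely ILV1, GLT1, ARO1, TRP3 (adjusted p = 0.0245), ILV3 and GDH1, and ARO4 and ARO7 were downward, with a median of 0.28 and with 30.7% of all genes upward and 28.8% downward. ILV1 and GLT1 were called in both estimates taken alone and without this array. Without replicate 1 of all 4 G1 comparisons GLT1 was the only gene still called, and without replicate 2 of all 4 there were 7 called, all upward.

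In S phase SER3 was the only gene whose response differed between the strains (-0.63, adjusted p = 0.0172), with 11.9% of all genes upward and 9.58% downward. The ways gave -0.58 from the MMS responses and -0.68 from the strain ratios, and neither passed alone without the block (adjusted p = 0.167 and 0.0842), while both passed with it (adjusted p = 0.0158 and 0.00634). Among all genes 2.38% and 5.65% were called upward in these without the block, and 2.28% and 3.71% downward. The call was also lost without either replicate. The median of the 43 genes was -0.17, with 14 above 0. With the block 2 differed upward and 5 downward (21.6% and 22.6% of all genes). The strain ratios hold the S-phase arrays with MMS, which correlated at -0.61 across genes after turning. The estimate from the MMS responses does not use those arrays.

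**Figure D3:**
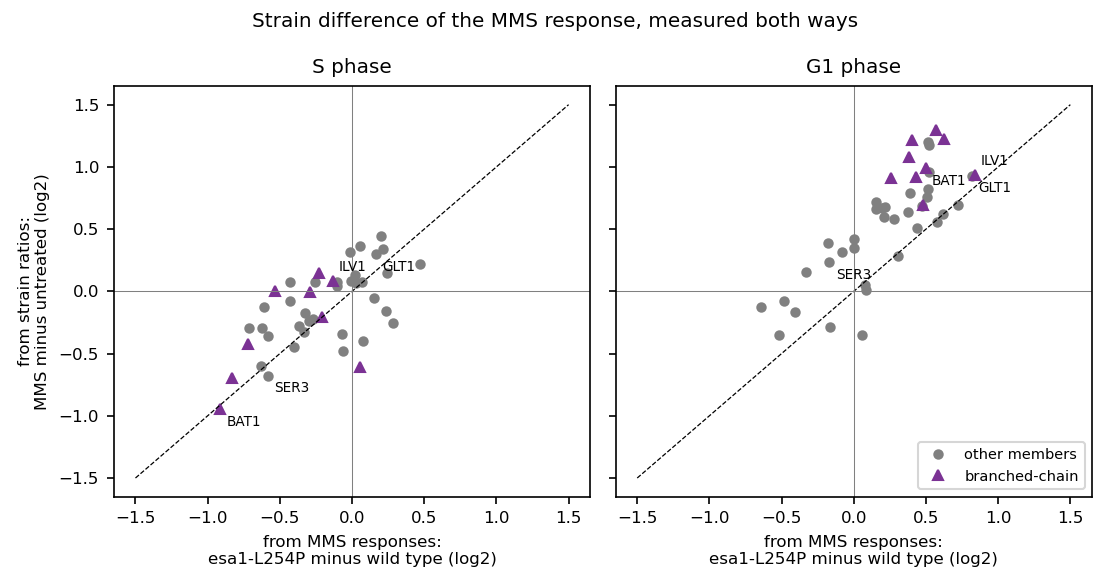
Strain difference of the MMS response (log2) for the 43 genes in S phase (left) and G1 (right), estimated from the MMS responses (x, esa1-L254P minus WT) and from the strain ratios (y, MMS minus untreated). Triangles are the 9 branched-chain genes, circles the others, and the dashed line marks equal values. In G1, 33 genes lie right of 0 and 37 lie above it, and most lie above the dashed line, while ILV1 and GLT1 lie near it.

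The ways should give equal values if the arrays of a phase close, and the gap between them was larger for these genes than for others. The median size of the gap was 0.40 in G1 and 0.21 in S phase over the 43 genes, against 0.12 and 0.12 over all genes. In G1 36 of 43 gaps had the strain ratios on the higher side, and the largest was 0.81 for ILV6. In S phase the largest was 0.66 for BAT2.

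Untreated cells were also compared between phases for the strain ratio, as S phase minus G1. ILV1 differed by 0.62 (adjusted p = 0.0463) and GLT1 by 0.48 (adjusted p = 0.0327), and none of the 43 genes differed downward, with 15.5% of all genes upward and 18.4% downward. Both genes were lower in esa1-L254P over WT in untreated G1 (-0.44 each, GLT1 called, ILV1 only with the block) and lay at 0.04 for GLT1 and 0.17 for ILV1 in untreated S phase. Without either replicate neither was called. With the block 5 differed upward and 2 downward (27.1% and 28.1% of all genes).

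GCN4 itself was called in no comparison without the block. In the MMS comparisons its arrays gave 1.47 and -0.72 in esa1-L254P and 2.20 and -0.22 in WT in S phase, and 1.05 and -1.01 in esa1-L254P and 0.61 and -0.97 in WT in G1. In esa1-L254P over WT they gave 1.61 and -0.79 in S phase with MMS, 1.60 and -0.53 in untreated S phase, 2.07 and -0.68 in G1 with MMS and 1.09 and -1.03 in untreated G1. In all 8 comparisons the array with the test RNA in Cy5 lay above 0 and its dye swap below 0.

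The GCN4 means ranged from -0.18 to 0.99 with a standard error of 1.01. With the block the WT S-phase MMS response (0.99, adjusted p = 0.000489), untreated S phase (0.54, adjusted p = 0.021) and G1 with MMS (0.70, adjusted p = 0.0096) of esa1-L254P over WT passed. Without replicate 1 the sign was turned in each of these 3.

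The dye term, by which the array with the test RNA in Cy5 lies above the mean of its pair on average, was estimated for every gene. GCN4 had the largest of the 43 genes, at 1.10 (adjusted p = 1.78e-06), followed by HOM2, for aspartate semialdehyde dehydrogenase, at 0.95, BAT1 at 0.80 and ARO4 at 0.76. The term was called for 27 of 43 genes, with a median of 0.29, and for 2159 of 4073 genes, with a median of -0.01. ARO1 (-0.16) and SER3 (-0.13) had the lowest values. A term equal in both arrays of a pair cancels in their mean.

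**Figure D4:**
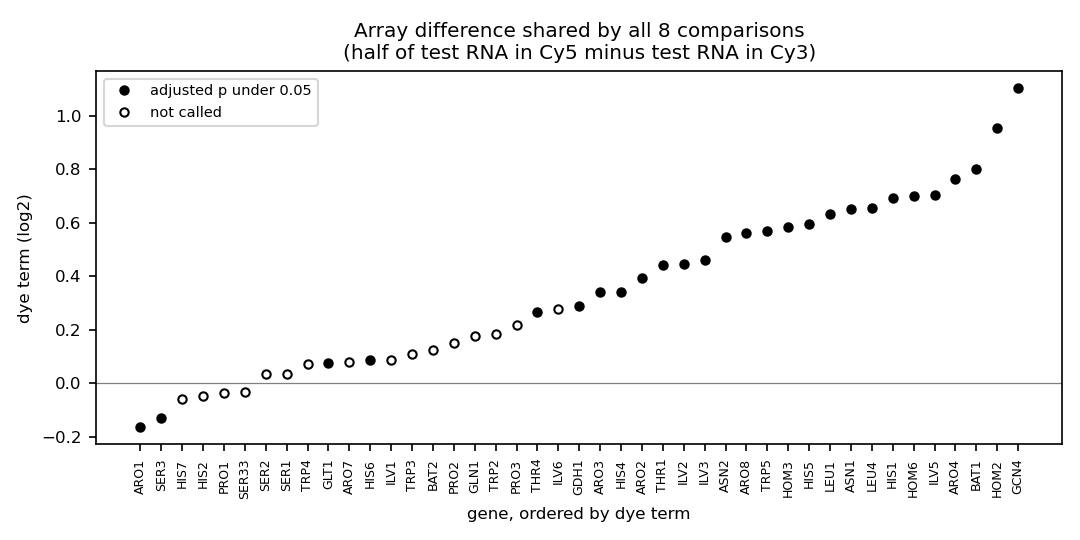
Dye term (log2) of each of the 43 genes from the limma fit with the replicate block, in order of size, with filled points for an adjusted p under 0.05. GCN4 stands at the high end at 1.10, and 27 of the 43 genes are called.

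Other lists of the same network were counted to set the 43 genes in place. Of 8 arginine genes, 3 rose in esa1-L254P and 5 in WT in S phase, and 1 in esa1-L254P and none in WT in G1, with no fall. With the block 7 rose in each strain in S phase and 2 in each strain in G1. ARG1, for argininosuccinate synthetase, rose by 2.56 in esa1-L254P and 2.83 in WT in S phase (adjusted p = 0.0259 and 0.0145). Of 9 lysine genes, 5 rose in esa1-L254P and 3 in WT in S phase, and 1 rose in esa1-L254P and 1 fell in WT in G1. With the block 7 rose in esa1-L254P and 4 in WT in S phase, and 4 rose and 1 fell in esa1-L254P and 1 fell in WT in G1. LYS20, for homocitrate synthase, rose by 2.09 in esa1-L254P and 2.31 in WT in S phase (adjusted p = 0.0491 and 0.0295).

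Of 16 sulfur amino acid genes, 3 rose and 3 fell in esa1-L254P and 5 rose and 1 fell in WT in S phase, and 5 rose and 1 fell in esa1-L254P and 5 rose and 2 fell in WT in G1. With the block 6 rose and 4 fell in esa1-L254P and 8 rose and 1 fell in WT in S phase, and 8 rose and 2 fell in esa1-L254P and 6 rose and 3 fell in WT in G1. SAM2, for S-adenosylmethionine synthetase, fell in all 4, with -1.08 in esa1-L254P and -1.07 in WT in S phase, and -0.88 in esa1-L254P and -1.83 in WT in G1. Of 12 genes of the Gcn2 and eIF2B control of GCN4, 1 rose in esa1-L254P, and 1 rose and 1 fell in WT, in S phase, and none was called in esa1-L254P and 1 fell in WT in G1. With the block 1 rose and 2 fell in each strain in S phase, and 2 rose and 2 fell in esa1-L254P and 2 fell in WT in G1. PCL5, for a cyclin that promotes turnover of Gcn4, rose by 1.17 in esa1-L254P and 1.62 in WT in S phase (adjusted p = 0.0021 and 0.000266).

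Of 17 aminoacyl-tRNA synthetase genes none rose in any of the 4 MMS comparisons, in limma with or without the block. Without the block none fell in esa1-L254P and 2 fell in WT in S phase, and 1 fell in esa1-L254P and 2 in WT in G1. With the block 3 fell in esa1-L254P and 4 in WT in S phase, and 2 in esa1-L254P and 5 in WT in G1. Of 13 regulators of single pathways, 2 rose and 2 fell in esa1-L254P and 3 rose and 2 fell in WT in S phase, and 3 rose and 2 fell in esa1-L254P and 2 rose and 1 fell in WT in G1. With the block 5 rose and 3 fell in esa1-L254P and 4 rose and 3 fell in WT in S phase, and 6 rose and 2 fell in esa1-L254P and 5 rose and 2 fell in WT in G1. All of these counts read against the same shares of all genes given above for each comparison.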

How the data were processed

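The authors deposited log2 ratios for 15744 spots on each of 16 two-colour arrays, made with R 3.1.1 and limma 3.0 per the submitters' processing notes. Background correction and normalization are not given in the sources used here. The log base was unstated and taken as 2, and the ratio as Cy5 over Cy3.

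The value order did not follow the platform's probe numbers: read by number, duplicate spots correlated at -0.05 to 0.03. Of 15552 systematic orderings, scored on how well duplicate spots agreed in 2036 genes, the chosen one scored 1.10 and the next 0.03. In 2037 genes kept out of the search duplicates then correlated at 0.66 to 0.95, and every gene name rests on this ordering. One symbol was carried by 8152 spots. The 7592 without one were left out. Spots of a gene were averaged, replicate 2 was multiplied by -1, and each array was centred on its median over 4073 genes.

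One limma model (limma 3.58.1, R 4.3.3, 8 coefficients, 8 residual degrees of freedom) covered all arrays, with Benjamini-Hochberg adjustment within each comparison and calls under 0.05. It was tested on simulated data with independent spread on each array and no dye term, so that test did not cover the dye term. Deviations of same-numbered arrays correlated at 0.62 to 0.89 in all 28 pairs of comparisons. The replicate number was therefore added as a block in the alternative fit. Because it equals the dye orientation, a dye difference shared by all comparisons gives such a correlation too. The correlation therefore cannot show that same-numbered arrays share a culture or a batch. Other alternatives were centring, scaling, spot choice, a closed loop fit, robust variance and leaving out single arrays.

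The text gives GCN4 and the paralogous pairs in the MMS comparisons, and up to 6 called genes per direction whose arrays lay on the same side. The genes, lists and tests were chosen with earlier results of these data known.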

Additional observations from a re-analysis of the deposited data

Results flagged for a closer look

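Responses that differed between groups by a test of the difference itself were the following. In G1 the MMS response differed between esa1-L254P and WT for ILV1 (0.8842), GLT1 (0.8733), TRP3 (0.5781), ARO1 (0.5087) and SER1 (0.4312), each relatively higher in esa1-L254P. Without the array of esa1-L254P over WT in G1 with MMS that stood apart, TRP3 and SER1 were no longer called without the block, and TRP3 was with it. In S phase the response differed for SER3 (-0.6297), lower in esa1-L254P.

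Between S phase and G1, the MMS response of WT differed for ILV1 (0.895) and SER3 (0.6911), higher in S phase, and for PRO1 (-0.523), lower in S phase. The ratio of esa1-L254P over WT in untreated cells differed for ILV1 (0.6158) and GLT1 (0.4813), higher in S phase. These were single genes among 43, and without the block the share of the 43 genes called was, for each kind of difference, below the share of all genes called in the same direction. The dye term, larger for the listed genes, counts as spread between arrays in that fit. Its effect on these shares was not tested. With the block the upward share for the strain difference in G1 was above it, at 39.5% against 32.9%. Without the array that stood apart that share was below it, at 14% against 30.7%.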

How the results depend on the processing

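All values here count called genes among the 43 unless said otherwise, and the cause of each change was not tested. With the replicate block, which equals the dye orientation, the count was 22 for MMS in esa1-L254P S phase and 31 in WT S phase. In G1 it was 14 in esa1-L254P and 11 in WT. For esa1-L254P over WT it was 7 in untreated S phase, 14 in G1 with MMS and 4 in untreated G1. For the strain difference it was 7 in S phase and 18 in G1, and for the phase difference 2 in esa1-L254P, 9 in WT and 7 for the untreated strain ratio. The block kept every call of a single gene made without it and added 3 of GCN4. It also added calls of other genes, among them ASN1, ASN2, LEU4, BAT1, ARO4 and SER3 in MMS comparisons.

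With arrays scaled to one spread 4, 6, 3 and 2 were called in the 4 MMS comparisons (esa1-L254P S phase, WT S phase, esa1-L254P G1, WT G1), 2 in S phase for esa1-L254P over WT with MMS, 2 for the strain difference in S phase and 1 for the phase difference in WT. With the first spot of each gene only, 2 were called for MMS in WT G1, and 0 for esa1-L254P over WT in untreated S phase, in G1 with MMS and in untreated G1, for the strain difference in S phase and for the phase difference of the untreated ratio. Leaving out genes whose spots lay over 0.5 apart removed 29 of the listed genes before testing, among them HIS7, SER1, SER33, HOM3 and GLT1. The counts under this setting cover only the listed genes that were kept, so they cannot be compared directly with the counts over the full list. The MMS counts were 3, 4, 0 and 1 in the same order, and the strain difference in G1 and the untreated phase difference each had 1. The median of esa1-L254P over WT in untreated S phase was 0.39 over the kept genes. All 23 results on single genes that were kept stayed on the same side of the threshold and with the same sign. The closed loop fit gave 13 for MMS in esa1-L254P S phase, 9 in esa1-L254P G1, 5 for esa1-L254P over WT in G1 with MMS and 4 in untreated G1, 9 for the strain difference in G1, and 1, 5 and 4 for the phase differences in esa1-L254P, WT and the untreated ratio. Without median centring the untreated phase difference had 1.

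With a replicate left out, the lone array of a comparison is assumed to vary like the others. The MMS counts then ran from 3 to 4 in both strains in S phase, from 1 to 3 in esa1-L254P G1 and from 1 to 2 in WT G1. They were 0 for esa1-L254P over WT in untreated S phase and in untreated G1, for the strain difference in S phase and for the phase differences in WT and the untreated ratio. Without replicate 1, esa1-L254P over WT in G1 with MMS had 0 and the strain difference in G1 had 1. The median of esa1-L254P over WT in untreated G1 ran from -0.27 to 0.19. With either replicate left out GCN4 ran for MMS from -0.72 to 1.47 in esa1-L254P S phase, -0.22 to 2.20 in WT S phase, -1.01 to 1.05 in esa1-L254P G1 and -0.97 to 0.61 in WT G1. For esa1-L254P over WT it ran from -0.79 to 1.61 in S phase with MMS, -0.53 to 1.60 in untreated S phase, -0.68 to 2.07 in G1 with MMS and -1.03 to 1.09 in untreated G1, the lower value always without replicate 1.

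Chosen after seeing the data, the strain difference from the MMS responses alone, or from the strain ratios alone, had 2 in G1 and 0 in S phase. Leaving out the array that stood apart gave 3 upward and 1 downward in G1, and 6 and 2 with the block. The searches for a Gcn4 motif in promoters were not run. Of 54 results on single genes, the closed loop fit left all 54 on the same side of the threshold and with the same sign. Calls were lost in 21 with the first spot only and in 18 with arrays scaled to one spread. Without median centring 5 were lost, and with robust variance 2. The sign turned in 7 without replicate 1 and in 1 without replicate 2, each of them a GCN4 result that was uncalled without the block. Most calls of the other genes were lost when either replicate was left out. The number of arrays, 2 per comparison, limits the precision of each value.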

Other observations

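Of 15 amino acid breakdown genes, 4 rose and 3 fell with MMS in esa1-L254P and 7 rose and 1 fell in WT in S phase, and 7 rose and none fell in esa1-L254P and 3 rose and 2 fell in WT in G1. Among all genes 16.3% rose and 16.8% fell in esa1-L254P and 19.1% and 19.2% in WT in S phase, and 13.3% and 13.9% in esa1-L254P and 18.1% and 17.9% in WT in G1. With the block 5 rose and 3 fell in esa1-L254P and 7 rose and 2 fell in WT in S phase, and 9 rose and none fell in esa1-L254P and 4 rose and 5 fell in WT in G1. GAD1, for glutamate decarboxylase, rose by 1.21 in esa1-L254P and 1.31 in WT in S phase and by 1.21 in esa1-L254P in G1 (adjusted p = 0.00081, 0.000382 and 0.00126). ARO10, for a decarboxylase of aromatic amino acid breakdown, rose by 0.98 in esa1-L254P and 1.33 in WT in S phase (adjusted p = 0.00224 and 0.000316). CAR2, for ornithine transaminase of arginine breakdown, was higher in esa1-L254P over WT by 1.20 in untreated S phase and by 1.27 in G1 with MMS (adjusted p = 0.000802 and 0.00128), and without the G1 array that stood apart the second was 1.31 (adjusted p = 0.026). The strain difference of the MMS response in G1 was upward for 8 of the 15 and downward for none, with a median of 0.60, against 21.4% of all genes upward and a median of 0.05 over all genes. Without that array it was upward for 8 and downward for none, with a median of 0.55, against 20.4% of all genes upward and a median of 0.01. With the block 10 were upward, and without that array 10 were upward and 1 downward.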
